A study of Homo sapiens with 4 samples.

Results

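The regions described here are MTF-1 peaks that appeared in cadmium-treated cells outside gene bodies and away from transcript starts. They were selected from the peak list of cadmium-treated MDA-MB-231 cells, an established human breast cancer line, by 3 criteria. The peak shared no base with any peak of the control list, its centre lay more than 3 kb and at most 100 kb from the nearest transcript start of GENCODE release 44 on hg38, and it lay in no annotated gene body. On chromosomes 1 to 22 and X, 2636 peaks of the 60130 in the cadmium list met the rule, and these are called gained distal intergenic peaks. The control list held 69299 peaks. CUT&RUN, in which an antibody directs a nuclease to a bound protein so that the DNA around it is cut out and sequenced, was carried out by the authors with an anti-MTF1 antibody. There were 2 replicates of untreated cells and 2 replicates of cells that had been made resistant by long passage in cadmium and were kept in 10 µM. Both conditions used the same unmodified line, and no other agent was named. The reads of each condition were merged before peaks were called, which left 1 list of positions per condition, without heights or counts of reads. Library depth is therefore unknown, replicates could not be compared, and the tests set classes of peaks from the 2 lists against each other, not replicates of the conditions.

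MTF-1 is a zinc finger protein that senses an excess of metal and binds metal response elements, short sites with the core TGCACNC or TGCGCNC, best known from the promoters of metallothionein genes. The metallothioneins bind and store zinc and cadmium. AP-1 is a pair of FOS and JUN family proteins that binds TGACTCA, is induced by stress and growth signals and is common at distal enhancers. Forkhead proteins bind sites such as GTAAACA and are also frequent at enhancers of epithelial cells. Enhancers lie at a distance from the genes that they control, and the nearest gene is not always the one controlled.

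The sequences below are given because AP-1 strings were the most frequent motif string in the gained distal intergenic peaks. They are the forward strand of hg38, and capitals mark TGACTCA or, on the other strand, TGAGTCA. The first 4 lie beside genes of stress response, signalling or cell adhesion, FOSL2 being itself an AP-1 subunit, then follows the narrow peak of chromosome 21, and the last 2 are peaks with many copies. In the FOSL2, HSPB8 and CLDN3 peaks the strings lie to the side of the centre.
FOSL2, chr2:28370473-28370552: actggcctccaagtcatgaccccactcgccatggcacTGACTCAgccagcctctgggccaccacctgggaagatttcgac
HSPB8, chr12:119168103-119168182: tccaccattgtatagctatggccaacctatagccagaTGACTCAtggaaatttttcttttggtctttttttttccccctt
CLDN3, chr7:73775095-73775174: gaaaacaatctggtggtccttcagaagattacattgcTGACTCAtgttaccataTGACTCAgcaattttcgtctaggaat
HGF, chr7:81858969-81859048: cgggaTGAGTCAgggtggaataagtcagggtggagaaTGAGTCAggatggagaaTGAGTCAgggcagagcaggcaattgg
Narrow peak near ENSG00000234034, chr21:22536600-22536799: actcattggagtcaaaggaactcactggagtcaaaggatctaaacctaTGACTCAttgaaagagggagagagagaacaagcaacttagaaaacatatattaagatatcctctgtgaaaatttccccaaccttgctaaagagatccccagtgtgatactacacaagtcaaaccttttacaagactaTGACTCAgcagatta
Peak near ENSG00000285722, chr22:49387510-49387689: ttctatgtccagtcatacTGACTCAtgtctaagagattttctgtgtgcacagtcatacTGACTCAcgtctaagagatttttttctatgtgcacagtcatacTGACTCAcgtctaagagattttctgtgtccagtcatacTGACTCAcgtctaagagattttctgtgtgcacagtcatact
PFKP-DT, chr10:3060910-3061089: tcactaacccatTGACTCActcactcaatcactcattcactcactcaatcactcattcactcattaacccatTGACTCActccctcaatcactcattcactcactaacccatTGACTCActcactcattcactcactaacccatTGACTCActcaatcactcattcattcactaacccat

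Another sequence shows the rare string TGCACACG, in capitals, which holds the metal response element core.
LINC02535, chr6:85355210-85355289: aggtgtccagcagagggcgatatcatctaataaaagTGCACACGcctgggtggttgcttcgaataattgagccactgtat

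Of all cadmium peaks on these chromosomes, 9074 of 60121 shared no base with a control peak, a background of 15.1%. Among cadmium peaks that were distal and intergenic the share was 20.2%, which is 2636 of 13075. The share was 18.6% for distal peaks inside genes, 17.4% for intergenic peaks over 100 kb from a start and 9.50% for peaks within 3 kb of one. Of the gained peaks, 29.1% were distal intergenic, 42.9% were distal inside genes and 26.4% lay within 3 kb of a start. These shares follow from the rule and are given as a description.

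The gained distal intergenic peaks were narrow, with a median width of 599 bp and quartiles of 399 and 999 bp. Peaks are built from bins of 200 bp, so the narrowest possible peak of 199 bp is a single bin, and 194 members had that width. Up to 3 bins were found in 1631 members (61.9%), and 129 members spanned 11 bins or more. Together they covered 2.11 Mb. The median width was 999 bp both for distal intergenic control peaks that were lost in cadmium (n = 4952) and for distal intergenic cadmium peaks that were shared with the control list (n = 10439), and it was 599 bp for gained distal peaks inside genes (n = 3892). A narrow peak more easily misses an overlap, so width is tied to the rule. The widest member, 6599 bp at chr9:136594601-136601199, lay 17737 bp downstream of the start of LINC01451, and the nearest protein-coding start was that of NOTCH1, the receptor of a cell-to-cell signalling pathway, 51852 bp away. The next widest lay at chr9:135276001-135282399 (6399 bp), chr16:89007801-89013599 (5799 bp), chr13:113559201-113564799 near TMCO3 (5599 bp) and chr1:38025801-38030999 near UTP11 (5199 bp). These 5 peaks held 0 to 3 AP-1 strings each, so the widest members were not those with most AP-1 strings.

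The median distance to the nearest transcript start was 15032 bp, with quartiles of 7311 and 29832 bp. Of the members, 915 (34.7%) lay 3 to 10 kb from a start, 1066 (40.4%) lay 10 to 30 kb away and 655 (24.8%) lay farther. The member nearest to the 3 kb limit was 3001 bp from TVP23CP3 at chr3:183460001-183460399, and the nearest gained peak left out was at 2994 bp (chr2:230582801-230583199). At the far limit the last member was at 99800 bp (chr19:28213401-28213999) and the first gained peak left out was at 100034 bp (chr2:71884201-71884599). For overlap, 7 members were in the bin next to a control peak, with a gap of 1 bp in these coordinates, among them the peak at chr1:43477601-43477999 near HYI. A cadmium peak at chr1:1591601-1591999 was counted as shared for 199 bp. A control peak lay within 1 kb of 78 members (2.96%), and the median gap to the nearest control peak was 11401 bp, so most members were well apart from control peaks.

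Under the rule above, AP-1 strings were the most frequent of the 11 motif strings searched. Within 500 bp around the peak centre, 918 of the 2636 gained distal intergenic peaks held one (34.8%, 95% Wilson interval 33.0 to 36.7), as against 7.73% of all 1668998 tiles of 500 bp from distal intergenic sequence in hg38. The share was 26.1% (24.8 to 27.3) in lost distal intergenic peaks, giving an odds ratio of 1.52 (95% interval 1.37 to 1.68, two-sided Fisher's exact test, p = 2.10e-14 after Benjamini-Hochberg adjustment over 33 tests). By the same exact test, gained distal peaks inside genes were at 34.3% (odds ratio 1.02, 0.921 to 1.13, adjusted p = 0.786) and shared distal intergenic peaks at 34.7% (odds ratio 1.01, 0.919 to 1.10, adjusted p = 0.968). The difference was thus found against lost peaks, and not against the peaks that both conditions held. That AP-1 is more frequent in gained than in lost peaks was known from earlier results of these data when the members were chosen, and is no independent support here. Intervals allow for counting error alone, and peaks that lie near each other are not independent observations.

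The call against lost peaks was lost under some settings. When the whole peak was searched, 45.1% of the members held an AP-1 string and the odds ratio against lost peaks was 1.08 (Fisher's exact test, adjusted p = 0.199). With peaks of at least 1000 bp in both lists it was 1.17 (Fisher's exact test, adjusted p = 0.227). Within strata of equal width the odds ratio against shared peaks was 0.789 (Mantel-Haenszel 95% interval 0.718 to 0.868), so at equal width AP-1 strings were less frequent in the gained distal intergenic peaks than in the shared ones.

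**Figure D1:**
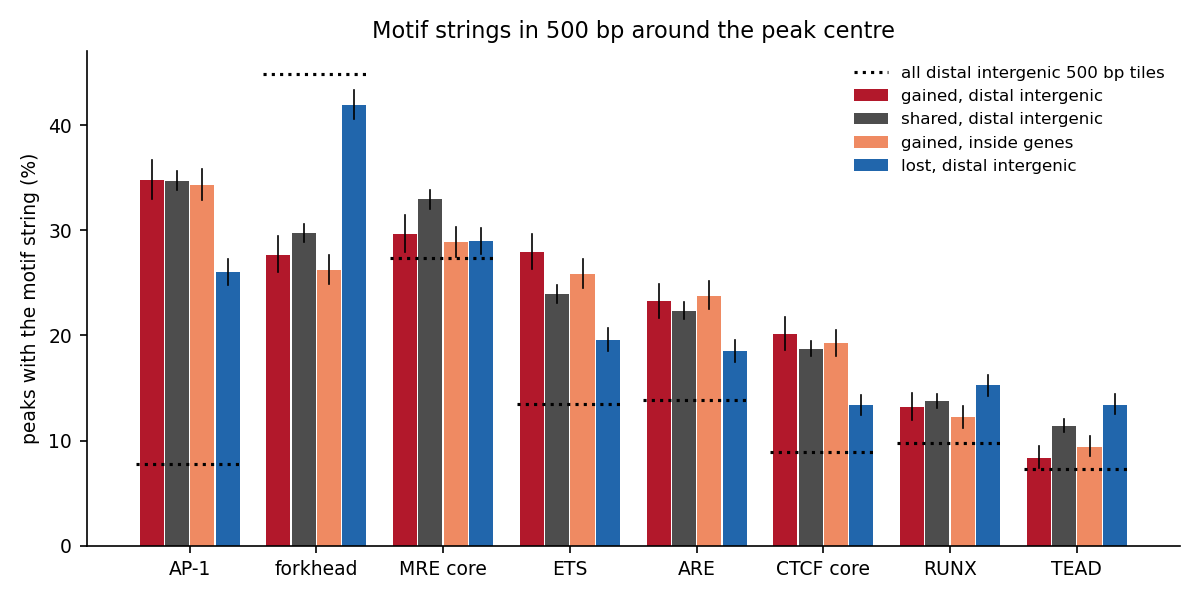
Share of peaks (%) with each of 8 motif strings in 500 bp around the centre, for gained distal intergenic peaks, shared distal intergenic peaks, gained peaks inside genes and lost distal intergenic peaks. Bars are shares, black lines 95% Wilson intervals and dotted lines the share of all 1668998 tiles. AP-1 stands at 34.8% in the gained distal intergenic peaks and 26.1% in the lost ones, and forkhead strings at 27.7% and 41.9%.

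Forkhead strings went the other way. ATAAACA or GTAAACA or ATAAATA or GTAAATA, on either strand, was found in 730 gained distal intergenic peaks (27.7%, 26.0 to 29.4) and in 41.9% of lost ones (odds ratio 0.530, 0.479 to 0.587, Fisher's exact test, adjusted p = 1.27e-33). All tiles were at 44.9%, above every class of peaks. Against gained peaks inside genes (26.3%) and shared peaks (29.8%) Fisher's exact test gave an adjusted p of 0.367 and 0.0931. Median GC content in the 500 bp was 48.0% in the gained distal intergenic peaks, 43.6% in lost peaks, 47.4% in gained peaks inside genes, 47.2% in shared peaks and 39.8% in tiles, and forkhead strings are rich in A and T. Within strata of equal GC content the forkhead odds ratio against lost peaks was 0.752, with its direction and call kept.

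The metal response element core, the site that defines MTF-1, was in 782 gained distal intergenic peaks (29.7%, 28.0 to 31.4). This was near the 27.4% of tiles and the 29.0% of lost peaks (odds ratio 1.03, 0.932 to 1.15, Fisher's exact test, adjusted p = 0.688). It was 28.9% in gained peaks inside genes and 32.9% in shared peaks (odds ratio against shared 0.859, 0.782 to 0.942, Fisher's exact test, adjusted p = 0.00474). The comparison with lost peaks depended on what was held equal, since the odds ratio was 1.18 within width strata and 0.779 within GC strata. The lower share against shared peaks was lost within width strata (odds ratio 0.959, 0.871 to 1.06). The string TGCACACG, or CGTGTGCA on the other strand, was in 13 members only (0.493%), as against 0.809% of tiles, 1.08% of shared peaks (Fisher's exact test, adjusted p = 0.0163) and 1.13% of gained peaks inside genes (adjusted p = 0.0192). Both calls were lost in 200 bp around the centre and with peaks of at least 1000 bp, and the call against gained peaks inside genes was also lost when sharing needed 50% cover (odds ratio 0.601) and in the whole peak (0.777). One copy lay 3 bp from the centre of a peak near RNA5SP230 at chr7:44131201-44132399, and the copy printed above near LINC02535 lay 50 bp from the centre.

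Strings of other factors also differed, mostly against lost peaks. The ETS strings CAGGAAG or CCGGAAG, on either strand, were in 28.0% of the gained distal intergenic peaks, 19.6% of lost peaks (odds ratio 1.59, Fisher's exact test, adjusted p = 4.38e-15), 23.9% of shared peaks (odds ratio 1.23, adjusted p = 9.03e-05) and 13.5% of tiles. The TEAD string ACATTCC, read on both strands, was in 8.35% of members and was less frequent than in lost peaks (13.4%, Fisher's exact test, adjusted p = 1.64e-10) and shared peaks (11.4%, odds ratio 0.708, adjusted p = 2.23e-05), with 7.34% of tiles. TEAD proteins are partners of the growth regulators YAP and TAZ. The CTCF core AGGGGGC or AGGTGGC, on either strand, was in 20.1% of members as against 13.4% of lost peaks (odds ratio 1.63, Fisher's exact test, adjusted p = 3.03e-13), 18.7% of shared peaks (adjusted p = 0.221) and 8.88% of tiles. CTCF is the factor that marks chromatin boundaries.

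The RUNX string AACCACA, on both strands, was in 13.2% of members, 15.2% of lost peaks (Fisher's exact test, adjusted p = 0.0415) and 9.75% of tiles. The antioxidant response element TGACNNNGC, the site of NRF2 and read on both strands, was in 23.3% of members, 18.5% of lost peaks (Fisher's exact test, adjusted p = 6.06e-06) and 13.9% of tiles. It can overlap AP-1, and in 113 members the AP-1 string lay inside such a match. The cyclic AMP response element TGACGTCA was in 12 members and the C/EBP strings TTGCACAA or TTGCGCAA in 57, and neither passed the test in any of the 3 comparisons. The RUNX call was lost with 50% cover (odds ratio 0.956), with control peaks within 1 kb counted as shared (0.861), with peaks of at least 2 bins (0.862) and within GC strata (0.961). With peaks of at least 1000 bp the calls against lost peaks were lost for TEAD, ETS, RUNX and the antioxidant response element, as was that for TEAD against shared peaks. With the whole peak searched the odds ratio against lost peaks was 1.02 for both ETS and the CTCF core, with both calls lost, and the ETS odds ratio against shared peaks turned to 0.772.

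AP-1 strings were concentrated at the middle of the gained distal intergenic peaks. Their density in the central 200 bp was 63.6 sites per 1000 peaks per 50 bp, and 16.0 between 200 and 500 bp from the centre, a ratio of 3.97 (exact 95% interval 3.53 to 4.46). The ratio was 4.35 in gained peaks inside genes, 3.17 in shared peaks and 2.51 in lost peaks, and it is a description without a test. In peaks of up to 599 bp the flank lies wholly or mostly outside the peak. Such peaks were 61.9% of members, 61.0% of gained peaks inside genes, 38.7% of shared peaks and 39.6% of lost peaks. The ratio was not compared at equal width, so the order of the classes cannot be told apart from their widths. Forkhead strings were sparser at the centre than in the flanks of the members (ratio 0.648, 0.573 to 0.731) and level in lost peaks (1.01, 0.949 to 1.08). The metal response element core was also sparser at the centre of members (0.784, 0.699 to 0.877). Among the 918 members with an AP-1 string in the window, the string nearest the centre was a median of 69 bp from it, and 597 had one within 100 bp. When both lists were limited to peaks of at least 1000 bp, which also changes the members, the ratio was 0.818.

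**Figure D2:**
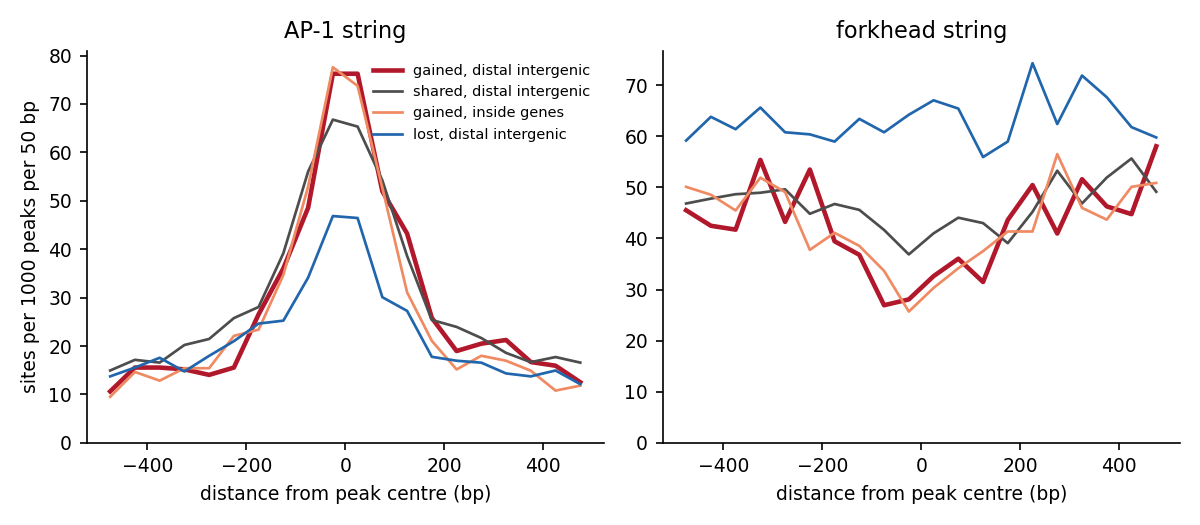
Sites per 1000 peaks per 50 bp (vertical axis) by distance from the peak centre in bp, for AP-1 strings (left) and forkhead strings (right) in the 4 classes. The AP-1 density of the gained distal intergenic peaks rises to its highest values in the 2 bins beside the centre, and the forkhead density dips there.

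Most members with an AP-1 string had a single copy. In the 500 bp, 767 held 1, 133 held 2 and 18 held 3 or more, with at most 11. The base on either side varied, and the most frequent form was ATGACTCAG with 124 of 1100 sites (11.3%), followed by CTGACTCAG with 115 and GTGACTCAC with 102. In lost peaks the most frequent form was ATGACTCAT, with 12.6% of 1430 sites, and that form made up 7.73% in the members. Of the members with an AP-1 string, 29.2% also held a forkhead string and 26.9% a metal response element core, as against 26.9% and 31.1% of members without one.

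The presence of AP-1 depended on width. The share was 41.8% (35.0 to 48.8) in the 194 single-bin members, 42.4% at 399 bp and 46.8% at 599 bp. It was 35.1% at 799 bp, 21.9% at 999 bp and 7.75% (4.26 to 13.7) in the 129 members of 2199 bp or more. Wide members thus lacked a central AP-1 string more often than narrow ones. Up to 599 bp the members were at 43.6%, gained peaks inside genes at 43.7%, shared peaks at 46.4% and lost peaks at 37.7% (odds ratio against lost 1.28, Fisher's exact test, adjusted p = 0.000826). From 999 bp on they were at 16.3%, lost peaks at 15.4% (odds ratio 1.07, 0.856 to 1.33) and shared peaks at 23.4% (odds ratio 0.638, 0.522 to 0.780, Fisher's exact test, adjusted p = 3.45e-05). Among peaks of up to 599 bp the CTCF core was in 21.1% of members, 11.9% of lost peaks, 17.6% of gained peaks inside genes (Fisher's exact test, adjusted p = 0.0121) and 16.6% of shared peaks (odds ratio 1.34, adjusted p = 0.000378). So narrow gained distal intergenic peaks held it more often than each of the other classes. This did not hold from 999 bp on, where it was in 18.2% of members and 14.0% of lost peaks. There gained peaks inside genes were at 21.8% (odds ratio 0.797, 0.634 to 1.003) and shared peaks at 19.9% (odds ratio 0.897, 0.738 to 1.09).

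**Figure D3:**
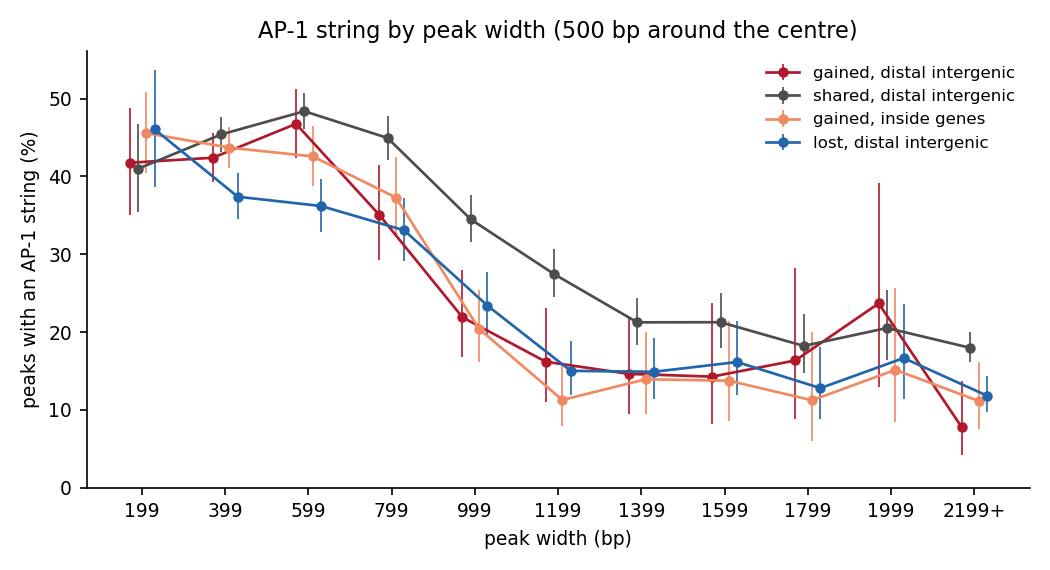
Share of peaks (%) with an AP-1 string in 500 bp around the centre by peak width in bp, in the 4 classes; points are shares and bars 95% Wilson intervals. The gained distal intergenic peaks fall from 46.8% at 599 bp to 7.75% at 2199 bp or more, and the shared peaks lie above them at every width but 199 and 1999 bp.

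In the first 2 of the members with most AP-1 strings, the copies came in tandem. The peak at chr22:49386601-49388599 near ENSG00000285722 held 41 AP-1 strings in 1999 bp, with a median step of 40 bp and 29 metal response element cores between them, as the stretch printed above shows. The peak at chr10:3060401-3061599 near PFKP-DT held 11, also with a median step of 40 bp, and was 1 bp from a control peak. The peak at chrX:1086001-1086999 near RPL14P5 held 7, with uneven steps of 29 to 266 bp. These 3 lay 1.43, 3.06 and 1.09 Mb from the end of their chromosome. The next had 4 strings each, at chr1:75033801-75035999 and chr20:60694201-60695799, with median steps of 438 and 83 bp. The narrow peak on chromosome 21, chr21:22536601-22536799, held 2 strings within its 199 bp and 3 in the 500 bp, and lay 16642 bp from the start of ENSG00000234034.

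No motif was named in advance for a second search, in which every 7-base string and its reverse complement (8192 pairs) was compared in the same windows. Against lost peaks 1116 strings were more frequent in the gained distal intergenic peaks, a share of 13.6%, and 1342 were less frequent, 16.4%. Within strata of equal GC content fewer were called, 216 and 394. There TGACTCA ranked first of all strings that were more frequent (Mantel-Haenszel odds ratio 1.78). Against shared peaks 141 strings were more frequent, 1.72%, and 301 were less frequent, 3.67%. The first of them was TGGACCA, in 8.92% of members and 5.55% of shared peaks (odds ratio 1.67, Fisher's exact test, adjusted p = 8.13e-07), then ACCAATC (odds ratio 1.76) and CCAATCA (odds ratio 1.61). None of these 3 is one of the 11 motif strings.

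Longer strings were compared after these results were seen. Of 741 strings of 12 bases that were found in at least 20 members, 152 were more frequent in the gained distal intergenic peaks than in shared distal intergenic peaks, a share of 20.5%, and 149 were less frequent. The minimum of 20 was set on the members alone, which favours strings that are frequent in them, so these counts are a description. The first was AGTGCTGATTGG or, on the other strand, CCAATCAGCACT, which holds the CCAAT box recognised by the factor NF-Y. It was in 62 members (2.35%, 1.84 to 3.004) and in 36 of 10439 shared peaks (0.345%, 0.249 to 0.477). Of the 152 strings, 143 were found with it, each with at least 30% of the rarer string's members in common, and 149 members held at least 1 of them. Only 5 of 4952 lost distal intergenic peaks held the leading string (0.101%), and the share in tiles was 0.107%; these shares are a description, since the string was chosen for its excess in the members. In distal peaks inside genes, which had no part in choosing the string, it was in 47 of 3892 gained peaks (1.21%), 18 of 17072 shared peaks (0.105%) and 6 of 9311 lost peaks (0.0644%), an odds ratio of gained against shared of 11.6 (6.72 to 19.96, Fisher's exact test, adjusted p = 1.19e-20 over 5 tests). These peaks came from the same 2 lists, and copies of a repeated sequence are not independent observations, so the interval and p-value are too narrow by an unknown amount. With peaks of at least 1000 bp the odds ratio of the members was 2.59 against shared and 6.89 against lost distal intergenic peaks. These 2 values come from the lists in which the string was chosen and are a description. So of the cadmium peaks that held it, 63.3% of 98 distal intergenic peaks and 72.3% of 65 peaks inside genes were gained.

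The 62 peaks were spread over 20 chromosomes, had a median width of 599 bp and held the string within the peak itself in every case. In 41 of them it stood at least 2 times in the 500 bp, up to 6. An AP-1 string was in 10 of the 62 (16.1%) as against 35.3% of the other members, and 1 of the 62 lay within 5 Mb of a chromosome end. Among them were a peak near KLRA1P with 8 copies, a peak near CDKN2AIP with 7, and a peak near HSPH1, a heat shock protein of the HSP110 family, with 4. These examples were chosen after their values were seen. In all, 231 members (8.76%) shared an exact stretch of 50 bases with another member. How reads that match several copies were placed is not given in the sources used here, and its part in the result was not tested. No repeat annotation was used here, so the repeated sequence is not named.

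**Figure D4:**
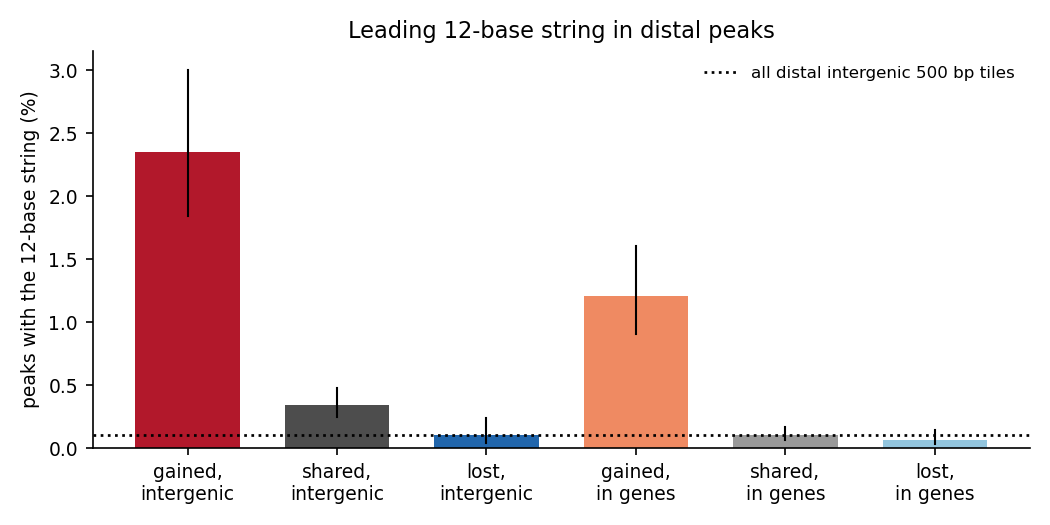
Share of distal peaks (%) with the leading 12-base string in 500 bp around the centre, for gained, shared and lost peaks outside and inside genes. Bars are shares, lines 95% Wilson intervals and the dotted line the 0.107% of tiles; both gained classes (2.35% and 1.21%) stand above the shared and lost ones.

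The gained distal intergenic peaks were also placed nearer to chromosome ends. Of the members, 432 (16.4%, 15.02 to 17.9) lay within 5 Mb of an end, as against 6.53% of tiles. The share was 8.70% of lost peaks (odds ratio 2.06, 1.78 to 2.37, adjusted p = 3.33e-22), 13.5% of gained peaks inside genes (odds ratio 1.25, 1.09 to 1.44, adjusted p = 0.00152) and 12.3% of shared peaks (odds ratio 1.398, 1.24 to 1.57, adjusted p = 8.41e-08, Fisher's exact tests over peaks). Of the distal intergenic cadmium peaks, 23.6% (20.7 to 26.7) were gained within 2 Mb of an end, 26.5% (23.8 to 29.4) from 2 to 5 Mb and 17.8% (16.7 to 18.99) at 40 Mb or more. The lost share of the control peaks ran the other way, from 24.7% within 2 Mb to 35.5% at 40 Mb or more. Median GC content moved with position, from 55.4% in members within 2 Mb to 46.4% at 40 Mb or more. Within strata of equal GC content the odds ratio was 1.42 against both lost and shared peaks. Against gained peaks inside genes the call was lost with limits of 2 Mb (1.04) and 10 Mb (1.10).

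**Figure D5:**
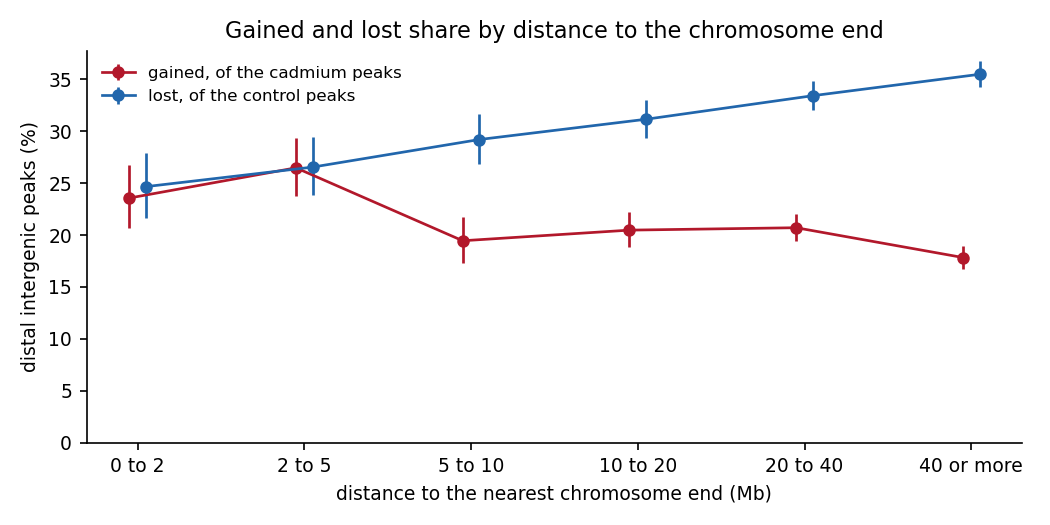
Gained share of distal intergenic cadmium peaks and lost share of distal intergenic control peaks (%) by distance to the nearest chromosome end in Mb, with 95% Wilson intervals. The 2 shares are alike within 5 Mb of an end and move apart farther in, to 17.8% gained and 35.5% lost.

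The gained share differed between chromosomes, from 13.9% (10.5 to 18.1) of distal intergenic cadmium peaks on chromosome 14 to 28.8% (24.4 to 33.7) on chromosome 15. It was 27.2% on chromosome 16 and 26.6% on chromosome 8. Lost peaks outnumbered members on most chromosomes, by 4.69 to 1 on chromosome 4, whereas chromosome 16 had 94 members and 47 lost peaks. Chromosomes 15 and 22 also had more members than lost peaks.

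Another cadmium peak lay within 5 kb of 921 gained distal intergenic peaks (34.9%, 33.1 to 36.8), as against 47.1% (46.2 to 48.1) of shared distal intergenic peaks and 35.3% of gained peaks inside genes. Within 20 kb the share of members was 70.5%, and within 50 kb it was 86.6%. The nearest other cadmium peak was a shared one for 69.0% of the members and a gained one for 31.0%. Shared peaks were 84.9% of the whole list, start sites included, and gained peaks were 20.2% of its distal intergenic peaks. When members less than 20 kb apart were joined, 1986 stood alone, 234 pairs formed and 53 groups held 3 or more, with 182 members. The 2 groups with most members held 7 each. One lay at chr9:135126401-135190799, downstream of OLFM1, which encodes a secreted glycoprotein of neurons, with 7 members from 599 to 3399 bp wide and no shared or lost peak between them. Another 7 lay at chr13:26881201-26947199, at 2 processed pseudogenes between GPR12 and USP12, also with no shared or lost peak between. The third group, at chr8:143148801-143193199 beside LY6H and GPIHBP1, held 6 members, with 3 shared peaks and 1 lost peak among them. In the first and second of these groups, spanning 64399 and 65999 bp, every peak of the cadmium list was a gained one.

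Genes near the members were diverse. The nearest start was that of a protein-coding gene for 950 members (36.0%), of a long noncoding RNA for 825 (31.3%) and of a processed pseudogene for 471 (17.9%). The members fell to 2209 nearest genes, 1874 of which had 1 member. The genes with most members were MIR1302-7 on chromosome 8 and OLFM1 with 6 each, then THNSL2 on chromosome 2, whose 5 peaks stood 4503 to 83103 bp from its start. None of these 3 genes was the nearest to a shared or lost distal intergenic peak.

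Genes with known roles in metal, stress and cell state were looked up in 12 lists, which held 363 of the 62062 annotated genes. Of the 363 genes, 20 were the nearest gene of 21 members (0.797%), as against 1.17% of lost peaks, 0.668% of gained peaks inside genes and 1.39% of shared peaks. These shares were not tested. No metallothionein was the nearest gene of a member. The gained peak nearest to a metallothionein start was at chr16:56621401-56623599, with 3 metal response element cores in the 500 bp. It lay 2975 bp upstream of a transcript start of MT1E, and so just within the 3 kb that excluded it. Gained peaks at chr16:56547601-56548599 and chr16:56549801-56550999 had MT4 as their nearest start but lay inside another gene.

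Of 30 zinc and metal transporter genes only SLC30A9, a zinc transporter, was nearest to a member, at chr4:42101601-42102199 and 31711 bp from its start, with 1 metal response element core and no AP-1 string. Among 21 genes of AP-1 and related factors, FOSL2 had a member 21748 bp upstream with 1 AP-1 string. FOXO6 was the only forkhead gene, with a member 7922 bp upstream that held no forkhead string. KEAP1, the inhibitor of NRF2, was the only one of 39 genes of oxidative stress and glutathione, with a member 5242 bp upstream at chr19:10508601-10508999 that held 3 RUNX strings.

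Heat shock genes had 4 members of 26 genes. The peak 3555 bp upstream of HSPB8 and the one 12685 bp downstream of the start of DNAJB9 each held 1 AP-1 string. HSPB1, a small heat shock protein, had a peak of 2199 bp with 5 metal response element cores and no AP-1 string in the 500 bp, 4723 bp downstream of its start, and HSPH1 had the peak with the repeated 12-base string.

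Genes of cell adhesion and the epithelial state were CLDN3, a tight junction protein with a peak 4730 bp upstream and 2 AP-1 strings, KRT19, a keratin, with a peak 6892 bp upstream, and TJP1, a tight junction scaffold, with a peak 13222 bp downstream of its start. MMP9, a matrix protease, had a peak of 799 bp 3708 bp upstream with no AP-1 string. The TGF-beta pathway was represented by SMAD2, a signal transducer, with a single-bin peak 14554 bp upstream and 1 AP-1 string, BMP6, a ligand (18099 bp), and NOG, an inhibitor of such ligands (86001 bp). Growth factor genes were HBEGF (3230 bp), PDGFB (20109 bp) and HGF, whose peak at chr7:81858801-81859199, 88562 bp upstream, held 3 AP-1 strings and lay 173401 bp from any control peak. SERPINA3, a protease inhibitor, had a peak 6167 bp from its start. None of the 43 listed cytokine and chemokine genes was nearest to a member. CCL17, a chemokine gene outside that list, was nearest to a member at chr16:57394801-57395399, 9667 bp from its start. With protein-coding starts only, 1 member fell to CSF1, a growth factor of macrophages, 28842 bp from its start.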

How the data were processed

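MTF-1 CUT&RUN was made by the authors in control (n = 2) and cadmium-treated (n = 2) cells. Alignment to hg38 was by Bowtie2, replicates were merged (SAMtools 1.8), and the authors ran Epic2 0.0.50 with default parameters on the merged files, without a named control library (the submitters' processing notes give SICER 0.0.50). The deposited files hold starts and ends in base pairs and a last column that is 5 throughout. The peak lists used here hold no reads, so depth is unknown.

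Here starts and gene bodies came from GENCODE 44, and sequence from hg38 with pysam 0.24.0. Consensus strings were searched on both strands, since no motif matrices were used. Shares have 95% Wilson intervals. Two-sided Fisher's exact tests and Mantel-Haenszel odds ratios were computed with scipy 1.17.1 and statsmodels 0.14.6, with Benjamini-Hochberg adjustment over 33 tests (11 motifs, 3 comparisons) or over all strings of 1 length. Classes were lost distal intergenic, gained inside genes and shared distal intergenic peaks; 9 cadmium and 16 control peaks on other sequences were left out. The functions were tested on simulated data.

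The members and lists were chosen with earlier results of these data known. Named peaks are the 5 widest, the 5 with most AP-1 strings, the 3 genes with most members, the 3 groups with most members, those at each threshold, those nearest to genes of 12 lists (up to 4 a list, with 1 gene and some sequences not reported here), and the metallothionein and chromosome 21 peaks. The 12-base strings and chromosome ends were examined after the data were seen.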

Additional observations from a re-analysis of the deposited data

How the results depend on the processing

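No paired analysis was possible because the replicates of each condition were merged before peaks were called, and for the same reason no replicate could be left out. Against lost peaks, the forkhead odds ratio kept its direction and call under every alternative run, as did the chromosome-end odds ratio against lost and against shared peaks and that of the leading 12-base string in its 3 comparisons, which reuse the members it was chosen in. The following changed side, direction or size, and where no reason is given the cause was not tested. When a peak was shared only if at least 50% of it was covered, the shares of members were 30.8% for AP-1 and 31.7% for the metal response element (MRE) core, the AP-1 centre to flank ratio was 3.08, 39.0% had another cadmium peak within 5 kb and the median width was 799 bp. The AP-1 odds ratios were then 0.954 against gained peaks inside genes and 0.783 against shared peaks, and that of the MRE core against shared peaks was 0.966. With peaks of at least 2 bins the AP-1 odds ratio against shared peaks was 0.990 and the forkhead odds ratio against gained peaks inside genes 1.16. With peaks of at least 1000 bp, which leaves fewer peaks and turns partners of narrow peaks into unique ones, there were 1483 members, with shares of 20.9% (AP-1), 25.8% (forkhead) and 35.5% (MRE core), a centre to flank ratio of 0.818, 32.0% with a neighbour, a median width of 1199 bp and a median distance of 14239 bp. In that setting the AP-1 odds ratio was 1.17 against lost and 0.887 against shared peaks, forkhead 0.940 against gained peaks inside genes, and the MRE core 0.935 against shared peaks. Against gained peaks inside genes it gave 1.04 for the antioxidant response element, 1.28 for TEAD, 0.886 for ETS and 0.959 for the CTCF core. Against shared peaks it gave 0.995 for the antioxidant response element, 1.01 for RUNX, 0.870 for ETS and 0.934 for the CTCF core, and against lost peaks 1.46 for TGCACACG and 1.01 for RUNX. For the cyclic AMP response element (CRE) it gave 0.583 against lost peaks, and for C/EBP 0.908 against gained peaks inside genes and 1.03 against shared peaks. With protein-coding genes only, the AP-1 share was 32.1%, 39.3% had a neighbour and the median distance was 25364 bp. The odds ratios against gained peaks inside genes were then 0.985 (AP-1), 0.992 (forkhead), 0.962 (RUNX) and 1.09 (chromosome end), and forkhead was 0.884 against shared peaks. C/EBP was 0.936 against gained peaks inside genes in that setting, and CRE was 0.919 against them when control peaks within 1 kb counted as shared. With distances from the peak edge the AP-1 odds ratio against shared peaks was 0.991. In 200 bp the shares were 22.1%, 10.2% and 12.3% for AP-1, forkhead and MRE core, fewer because less sequence was searched. The odds ratios in 200 bp were 0.945 (AP-1), 0.908 (MRE core) and 0.964 (RUNX) against gained peaks inside genes, 0.978 (MRE core) against lost and 0.762 (forkhead) against shared peaks, with 1.22 (CRE) and 1.01 (C/EBP) against shared and 1.07 (C/EBP) against lost peaks. In the whole peak the shares were 45.1%, 31.9% and 37.6%. There the odds ratios against lost peaks, which are wider, were 1.08 (AP-1), 0.645 (MRE core) and 0.808 (antioxidant response element), and against shared peaks 0.702 (AP-1), 0.512 (forkhead), 0.681 (antioxidant response element), 0.772 (ETS) and 0.755 (CTCF core), with CRE at 0.916 against gained peaks inside genes. Within width strata the odds ratios against shared peaks were 0.789 (AP-1), 0.809 (forkhead) and 0.959 (MRE core), and the MRE core was 1.18 against lost peaks. Within GC strata the MRE core was 0.779 against lost peaks and forkhead 1.16 against gained peaks inside genes, and C/EBP was 1.07 against lost and 1.01 against shared peaks. Chromosome-end odds ratios against gained peaks inside genes were 1.04 at 2 Mb and 1.10 at 10 Mb. Without peaks that held the leading 12-base string the forkhead odds ratio against shared peaks was 0.889. All alternatives for the chromosome ends, the 12-base string and the motifs other than AP-1, forkhead and MRE core, and the removal of peaks with the string, were added after seeing the data. Since the lists give no depth or score, a gained peak cannot be told from one that was only below the caller's threshold in control cells.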

Other observations

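When only protein-coding genes were considered as the nearest gene, 67 of the gained distal intergenic peaks fell to 48 of the 363 listed genes. Forkhead genes then had 18 members at 11 genes, among them FOXA1 (13862 bp from its start), FOXF2 (2 members, 14724 and 83824 bp) and FOXD2 (3 members, the nearest at 50056 bp). Genes of the TGF-beta pathway had 15 members at 8 genes, with 4 members 93789 to 133289 bp from BMP7, a ligand of that pathway, and 2 near SMAD7, an inhibitor of it (34435 and 49635 bp). By the same measure OLFM1 had 13 members, PTPRU 10 and CDH4 and TSNARE1 9 each. These counts were not tested, and some distances were far beyond 100 kb, as for CDH2 (970154 bp). They were made for the members only, so they cannot show an excess over the other classes, which differ in size. With the starts of all genes, forkhead genes were nearest to 1 member, 3 lost, 1 gained in-gene and 12 shared peaks. For TGF-beta genes these numbers were 3, 8, 4 and 27.

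Strings of 12 bases that were less frequent in the gained distal intergenic peaks than in shared ones included runs of A. A run of 12 A, read on both strands, was in 6.49% of members and 9.59% of shared peaks, and GAGGCAGGAGAA in 3.07% and 5.42% (Fisher's exact test, adjusted p = 1.68e-06 and 1.15e-06).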
